A study of Arabidopsis thaliana with 8 samples.

Results

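The comparison described here sets Arabidopsis thaliana endosperm without any functional NRPD1 against endosperm in which only the copy from the father worked, for small RNAs (sRNAs) 24 nucleotides (nt) long. Its libraries were chosen by genotype alone, and they are 6 of the 8 in the series. Only small RNAs are analysed here, so the dissected tissue was not checked against mRNA markers, and fewer cells making an sRNA cannot be told apart from less sRNA per cell. The 3 libraries of mat nrpd1+/- came from F1 seeds of Ler nrpd1-/- mothers and wild-type Col-0 fathers. The 3 libraries of nrpd1-/- came from F1 seeds of Ler nrpd1-/- mothers and Col-0 nrpd1-/- fathers. Both groups therefore shared the mutant mother and differed in the father. The allele was a single T-DNA insertion line in Col-0 that had been crossed into Ler. All seeds were untreated and were dissected by hand 7 days after pollination, and each library pooled the endosperm of many seeds from crosses with its own parent plants, so that p-values measure the spread between such pools. The other 2 libraries, pat nrpd1+/- replicates 2 and 3 (wild-type mother, mutant father), are given beside some values and entered no test.

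NRPD1 is the catalytic subunit of RNA polymerase IV (Pol IV), a plant polymerase that transcribes transposable elements (TEs) and other repeats. RDR2 makes its short transcripts double-stranded, DCL3 cuts them mainly into 24-nt small interfering RNAs, and ARGONAUTE4-type proteins carry these to sites where they direct DNA methylation. MicroRNAs (miRNAs) and trans-acting siRNAs are made from Pol II transcripts, for the most part by DCL1 and DCL4. Endosperm is the nourishing tissue of the seed and receives more genome copies from the mother than from the father. The question was what remains of the 24-nt population when the one working copy of NRPD1, inherited from the father, is removed as well.

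Every level below is the number of 24-nt reads at a locus for each 1000 24-nt reads that the same library had in annotated mature miRNAs, called scaled reads. A count of 24-nt reads at a miRNA is not a count of the mature miRNA unless the latter is itself 24 nt long. The libraries of mat nrpd1+/- held 16855 to 17785 such miRNA reads and those of nrpd1-/- held 19645 to 31761. Reads in genes numbered 863680 to 1082355 against 261425 to 452959, and reads in TE insertions 3938138 to 5140627 against 188781 to 266482. A read that matched several near-identical copies was placed at only 1 of them, so such copies cannot be told apart. The nrpd1-/- libraries were not alike in one respect. At the 15 genes that were called higher in nrpd1-/- and that had at least 10-fold more reads in pat than in mat nrpd1+/-, replicate 1 held a median of 1.95% of the pat nrpd1+/- level, replicate 2 held 0.859% and replicate 3 held 0.0793%. The same order of the 3 replicates was seen in 21 of the other 41 genes called higher. Named loci whose call changed without replicates 1 and 2 are given with and without them.

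The miRNAs on which the scale and several results turn are printed first, to show what those that kept and those that lost their 24-nt reads look like. Sequences were read from the RefSeq TAIR10.1 genome at the positions that the deposited entries give, and the capitals mark the seed, bases 2 to 8. miR163 (chr1:24884359-24884382, plus strand), miR836 (chr2:10634331-10634354, minus strand) and miR5653 (chr1:19026915-19026938, minus strand) are annotated at 24 nt. miR8167c (chr3:18843649-18843670, minus strand), miR5645c (chr3:14742776-14742796, plus strand) and miR5659 (chr5:16409804-16409826, minus strand) had no 24-nt read left in nrpd1-/-. miR168a-5p (chr4:10578652-10578672, plus strand) is a conserved miRNA that targets ARGONAUTE1.
miR163: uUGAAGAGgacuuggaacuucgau
miR836: uCCUGUGUuuccuuugaugcgugg
miR5653: uGGGUUGAguugaguugaguuggc
miR8167c: aGAUGUGGagaucguggggaug
miR5645c: aACCUAUUuaacgacaugacu
miR5659: cGAUGAAGgucuuuggaacggua
miR168a-5p: uCGCUUGGugcaggucgggaa

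Removing the paternal copy took away nearly all 24-nt sRNAs at TEs and most of those at genes. TE insertions together held 292430, 274543 and 233648 scaled reads in the 3 mat nrpd1+/- libraries and 7983, 9488 and 9610 in the 3 nrpd1-/- libraries, which is 29.6-fold less. The groups were far apart and each was narrow. Genes together held 61571, 55850 and 51242 scaled reads in mat nrpd1+/- and 14261, 13332 and 13307 in nrpd1-/-, a 4.12-fold difference. The exact two-sided permutation test of 3 against 3 libraries gave p = 0.1 for both totals, the smallest p that this design allows. On a log2 scale the totals differed by -4.89 at TEs and -2.04 at genes. The fall at genes depends on the scale, and library sizes taken from the genes themselves (edgeR's trimmed mean of M values, TMM) turned it into a rise of 2.37.

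The classes of gene differed in what they kept. Protein-coding genes had 42773, 38376 and 33815 scaled reads in mat nrpd1+/- and 3283, 3311 and 2524 in nrpd1-/-, or 12.6-fold fewer. Long non-coding RNA genes (lncRNAs) had 5.36-fold fewer and transcribed pseudogenes 1.76-fold fewer. Reads at tRNA genes, which in such libraries are fragments of tRNAs, numbered 444, 506 and 462 in mat nrpd1+/- and 587, 512 and 517 in nrpd1-/-. The groups did not overlap, but the direction depends on the scale, since the log2 ratio of the means was 0.20 here and -0.21 with library sizes from conserved miRNA families. Ribosomal RNA (rRNA) genes had 1588, 1401 and 2149 scaled reads against 3071.9, 1982 and 2245, and here the groups overlapped. The 18S rRNA genes AT2G01010 and AT3G41768 were among the loci with most reads in both groups, and their counts share near-identical copies. Mature miRNAs of conserved or long-known families held 261, 313 and 330 of each 1000 miRNA reads in mat nrpd1+/- and 373, 383 and 441 in nrpd1-/-.

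**Figure D1:**
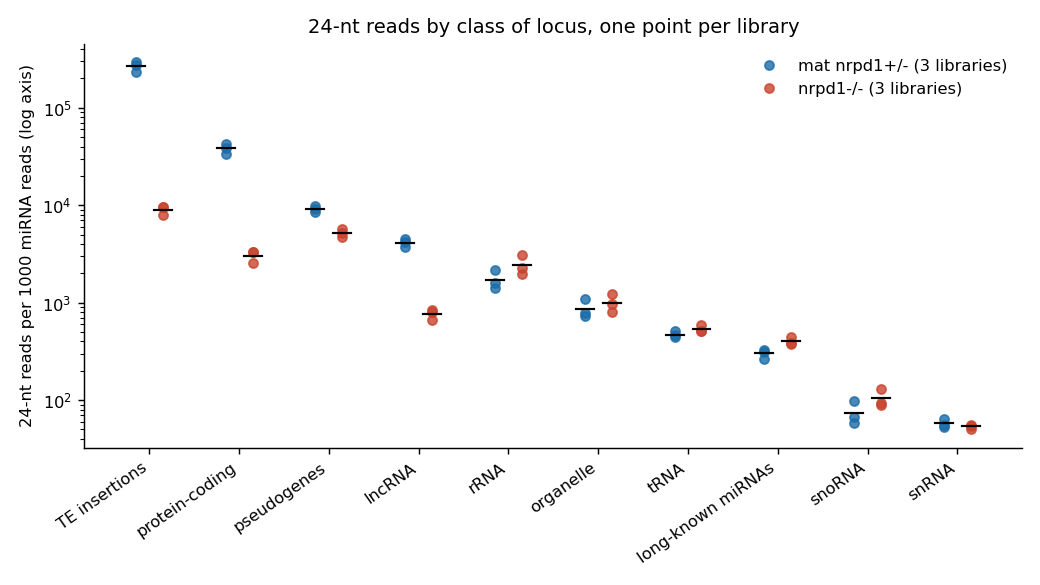
Scaled 24-nt reads (reads per 1000 24-nt reads in mature miRNAs, log axis) summed over each class of locus, one point per library, with a bar at the mean of the 3 libraries of each genotype. TE insertions fell from 233648 or more to 9610 or less, while tRNA genes held 512 to 587 scaled reads in nrpd1-/- and 444 to 506 in mat nrpd1+/-, a direction that turned with library sizes from conserved miRNA families.

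Locus by locus, edgeR's quasi-likelihood test called a locus that changed at least 2-fold with a p of at most 0.05 after Benjamini-Hochberg adjustment. Of 5418 genes tested, 4845 were lower in nrpd1-/- (89.4%) and 56 were higher (1.03%). Of 15123 TE insertions tested, 15072 were lower (99.7%), 8 were higher (0.0529%) and 43 were neither. The median log2 fold change was -5.17 over genes and -7.14 over TE insertions. Under the TMM library sizes from genes the medians were 0.38 and -2.91, so that all changes shifted up, and 1873 genes were lower and 2463 higher. With DESeq2's size factors 4095 genes were lower and 1458 higher. Of the tested TE insertions 14.4% had no read in any nrpd1-/- library, against 6.20% of the genes.

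Protein-coding genes, lncRNAs and transcribed pseudogenes moved much alike once they were counted one by one. Lower calls covered 3938 of 4150 protein-coding genes, 381 of 403 lncRNAs and 388 of 406 transcribed pseudogenes. Their median log2 fold changes were -5.09, -6.46 and -6.72. Transcribed pseudogenes therefore fell as often as other genes although their summed reads fell least, and a few of them, described below with the TEs, held most of the reads that remained. Among RNAs made without Pol IV the picture was different, with 23 of 200 tRNA genes lower, 13 higher and a median of 0.19, and 5 of 61 small nucleolar RNA (snoRNA) genes lower, 8 higher and a median of 0.56. None of 3 rRNA genes was called. Chloroplast and mitochondrial loci lay between, with 64 of 126 lower.

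**Figure D2:**
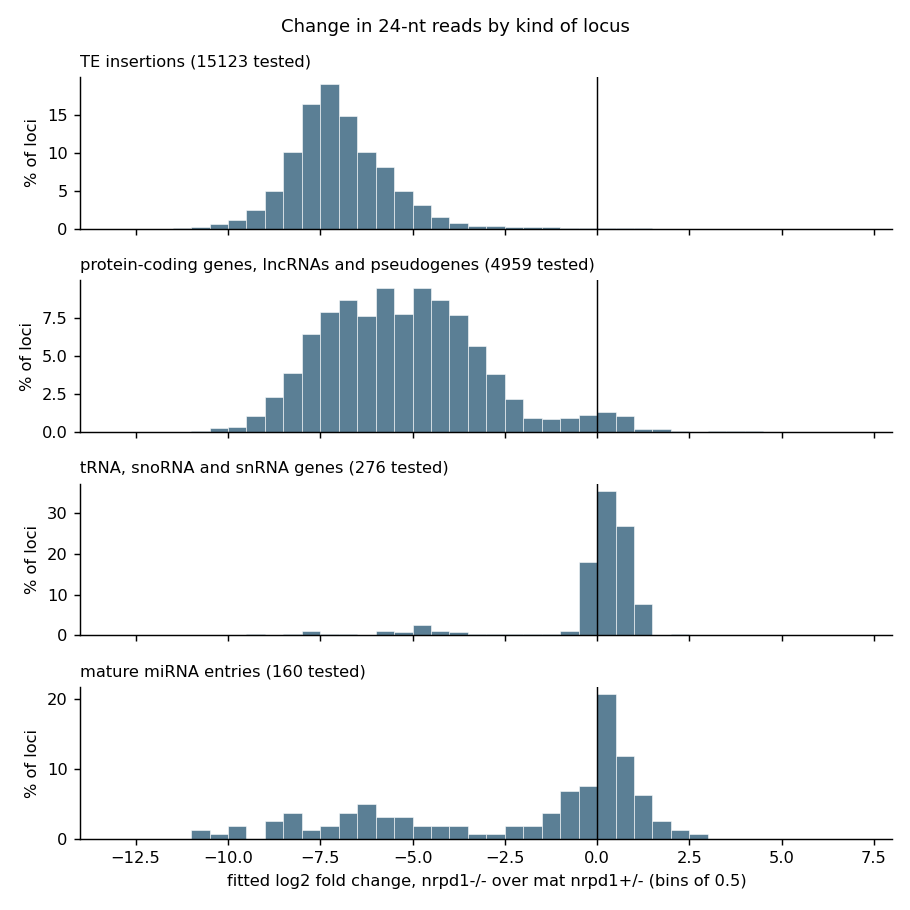
Share of loci (%, each panel to its own scale) by fitted log2 fold change of nrpd1-/- over mat nrpd1+/- in bins of 0.5, for TE insertions, for protein-coding genes with lncRNAs and pseudogenes, for tRNA, snoRNA and small nuclear RNA genes, and for mature miRNA entries. TE insertions form a single hump around -7.14, structural RNA genes lie near 0, and miRNA entries are spread over both ranges.

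No superfamily of TEs escaped. Median log2 fold changes ran from -6.69 for 523 insertions of hAT DNA transposons to -7.47 for 149 of Harbinger, and Gypsy retrotransposons (2977 insertions, median -7.35), Copia retrotransposons (805, -7.03), LINEs (836, -7.12), SINEs (312, -6.78) and Helitrons (5262, -7.02) lay within that range. All tested insertions of En-Spm, Harbinger, Pogo, hAT and LINE elements were called lower. By summed reads, Helitrons kept 10.14% of their mat nrpd1+/- total against 0.415% to 1.91% in every other superfamily. That sum rested on a few insertions and was no trait of the superfamily. Helitrons averaged 6430 scaled reads in nrpd1-/-. The 9 insertions of shared sequence described below, most of them Helitrons and the rest MuDR, averaged 6337, and all MuDR insertions together averaged 974. Outside those 9, TE insertions of all kinds kept 1.02%. Insertions of 4000 bp or longer had a median of -7.42 and those under 500 bp one of -7.00. Insertions in the lowest 25% by level in mat nrpd1+/- had a median of -6.30, with 38.5% of them at 0 in all nrpd1-/- libraries, and those in the highest 25% had a median of -7.50 with 0.0793% at 0. That level also enters the fold change, and an insertion with no read in nrpd1-/- gives only a bound. The medians by level are therefore given as a description.

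**Figure D3:**
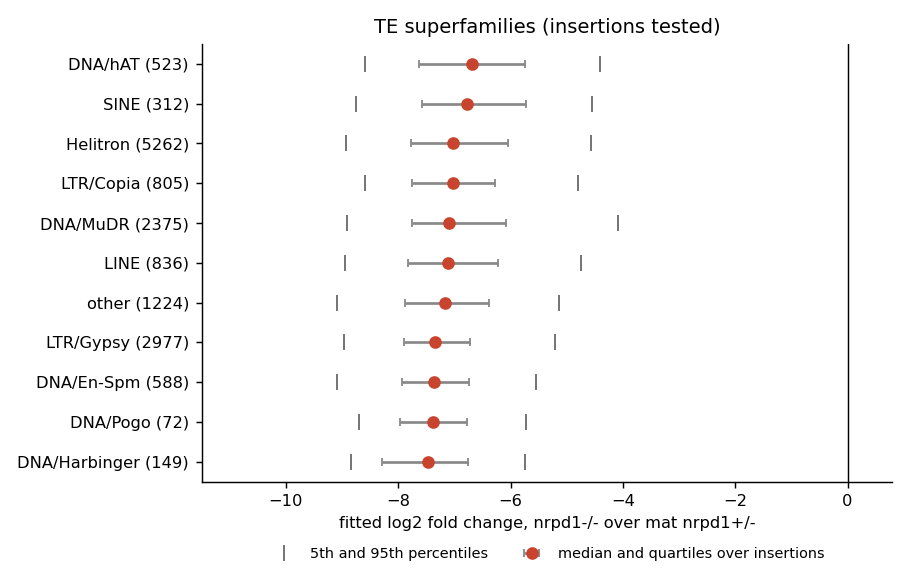
Fitted log2 fold change of nrpd1-/- over mat nrpd1+/- for tested TE insertions by superfamily, with the number of insertions in brackets. Points are medians, horizontal bars run between the quartiles and ticks mark the 5th and 95th percentiles, and the medians of all superfamilies lie between -7.47 and -6.69.

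Of the 5 insertions with most reads in mat nrpd1+/-, 4 were almost emptied, and the other, AT2TE45640, was not called and is described below. AT3TE63215, a VANDAL8 element of the Mutator-like (MuDR) class (chr3:15634917-15639169, TAIR10), had 2079.8, 1952 and 1677 scaled reads in mat nrpd1+/- and 3.12, 5.06 and 4.17 in nrpd1-/-. AT4TE09825, a HELITRONY3 element (chr4:2072130-2075641), had 1556, 1345 and 1225 against 3.72, 6.02 and 3.56. AT2TE21295, a VANDAL3 element that spans 22996 bp, had 1129, 956 and 863 against 2.36, 3.20 and 3.67. In each of these every nrpd1-/- library lay far below every mat nrpd1+/- library, with log2 fold changes of -8.86 ± 0.31 (SE), -8.27 ± 0.30 and -8.33 ± 0.30. The next VANDAL8 insertion, AT3TE63205, fell by 8.11 on the log2 scale.

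The leading insertion of each other superfamily behaved likewise. The log2 fold change was -8.66 for AT2TE13490 (ATENSPM10, En-Spm), -8.45 for AT2TE11695 (ATIS112A, Harbinger), -8.79 for AT4TE15845 (ATHAT1, hAT) and -7.62 for AT3TE52120 (LIMPET1, Pogo). Among retrotransposons it was -7.91 for AT4TE13400 (ATHILA4B_LTR, Gypsy), -7.93 for AT2TE06390 (ATCOPIA28, Copia), -7.97 for AT2TE21970 (ATLINE1A) and -7.04 for AT4TE32185 (ATSINE2A). AT4TE32185 had the fewest reads of these, 62.1, 48.2 and 41.9 scaled reads in mat nrpd1+/- and 0.220, 0.463 and 0.509 in nrpd1-/-. All of them were called lower, and in none did the groups overlap.

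The largest fitted falls belonged to insertions with no read at all in nrpd1-/-, for which only a bound can be given, from 3 reads over the 3 libraries. AT5TE51160, a 58 bp fragment of the BRODYAGA1A family that lies in no gene, had 22.7, 25.7 and 13.1 scaled reads in mat nrpd1+/- and was at least 543-fold lower. It is printed because it shows how little sequence such a locus can consist of (chr5:14301898-14301955, TAIR10.1, plus strand).
AT5TE51160: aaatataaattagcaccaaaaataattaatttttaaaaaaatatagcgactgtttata
AT3TE22595 (ATREP10, a Helitron) was at least 508-fold lower, AT2TE08515 (RP1_AT) at least 481-fold, AT2TE08215 (ATREP19) at least 450-fold and AT2TE19725 (ATHILA4A) at least 427-fold.

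A small remainder was still counted at the loci that fell. At the median TE insertion called lower, nrpd1-/- replicates 1, 2 and 3 held 0.420%, 0.622% and 0.323% of the mat nrpd1+/- mean, and 34.3%, 29.9% and 43.5% of these insertions had no read in the respective library. At the median gene called lower the same libraries held 1.39%, 1.89% and 0.996%. Replicate 2 had the largest and replicate 3, which also had the fewest miRNA reads (19645), the smallest remainder at both kinds of locus.

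The remainder also had another make-up of sizes, by counts of 22-, 23- and 24-nt reads in the same libraries. At TE insertions called lower, 22-nt reads were 6.91% ± 0.443 (SD, n = 3) of the 3 sizes in mat nrpd1+/- and 24.1% ± 4.37 in nrpd1-/-, and 23-nt reads went from 28.4% ± 2.19 to 11.1% ± 1.46. The 24-nt share was 64.7% ± 2.61 and 64.8% ± 5.77. Scaled reads were 37.7-fold lower for 22 nt, 338-fold lower for 23 nt and 131-fold lower for 24 nt. At protein-coding genes called lower the 22-nt share was 7.54% ± 0.276 against 27.3% ± 2.02 and the 23-nt share 25.7% ± 2.42 against 14.0% ± 0.578. Here the 24-nt share also differed, at 66.7% ± 2.68 against 58.7% ± 2.57 (exact permutation p = 0.1). The shares did not overlap between the groups for 22 and 23 nt (exact permutation p = 0.1 each, the smallest possible). Both sets were selected by their fall in 24-nt reads in these libraries, so their shares and p-values are descriptions. Over all TE insertions, without that selection, the 22-nt share was 6.92% ± 0.443 in mat nrpd1+/- and 12.2% ± 1.56 in nrpd1-/-. The 23-nt share there was 28.2% ± 2.22 and 7.96% ± 0.682, and the 24-nt share 64.9% ± 2.64 and 79.8% ± 2.19. At tRNA genes the 22-nt share was 26.2% ± 2.81 and 25.9% ± 1.92 (exact permutation p = 0.9).

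The 51 TE insertions that were not called lower held most of what remained. They had 4111, 4063 and 4561 scaled reads in mat nrpd1+/- and 6005, 7081 and 7696 in nrpd1-/-, and their share of all TE reads was 1.41% to 1.95% in the former and 74.6% to 80.1% in the latter. All other insertions together dropped from 288319, 270480 and 229087 to 1979, 2407 and 1914 scaled reads, which is 125-fold less. By family name alone, Helitrons made up 24 of the 51, MuDR elements 16, Gypsy 7, Copia 2, and SINE and unclassified elements 1 each. Of all 15123 insertions tested, 5262 were Helitrons, 2375 MuDR, 2977 Gypsy, 805 Copia, 312 SINE and 1224 unclassified. Beside 51 of 15123 over all families, the largest family counts were 10 of 476 tested ATREP10D insertions and 10 of 177 tested ATDNA12T3_2 insertions. The latter are 10 insertions between chr3:13815530 and chr3:13870198, counted among the MuDR elements, most of them copies 63 to 64 bp long. Together they had only 20.8, 9.45 and 9.97 scaled reads in mat nrpd1+/- and 9.10, 9.26 and 4.48 in nrpd1-/-. Their sequences were not compared with those of structural RNAs, so the origin of these reads was not tested.

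Most of the reads that stayed lay in 9 insertions at 4 places, singled out after their values were seen. These were chr2:10643917-10646056, chr3:12879293-12879956, chr3:13265698-13267123 and chr3:13291264-13292556. Together the 9 insertions had 3615, 3596 and 4138 scaled reads in mat nrpd1+/- and 5461, 6398 and 7152 in nrpd1-/-, beside 5076 and 6277 in the pat nrpd1+/- libraries. They took 1.24% to 1.77% of TE reads in mat nrpd1+/- and 67.4% to 74.4% in nrpd1-/-. Every place overlaps exons of transcribed pseudogenes, AT2G25025 in the first, AT3G31902 and AT3G31903 in the second, AT3G32313 and AT3G32316 in the third and AT3G32371 in the last.

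The 4 places resemble each other in sequence. Of the 24-base stretches in each of the 9 insertions, between 17.0% (AT2TE45640) and 81.97% (AT3TE52900) also occur, on either strand, at another of the places. So a 24-nt read from one can fit another exactly, and the division of reads among them is uncertain while their sum is less so. A pair of insertions shows this: AT3TE52900 (ATREP10A, chr3:12879873-12879956, plus strand as printed) and AT3TE54350 (BRODYAGA2, chr3:13292060-13292160, plus strand as printed), both TAIR10.1. Capitals mark bases inside a 24-base stretch that also occurs in AT2TE45640 on chromosome 2.
AT3TE52900: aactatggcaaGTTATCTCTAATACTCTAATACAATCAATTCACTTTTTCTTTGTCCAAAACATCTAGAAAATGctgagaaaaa
AT3TE54350: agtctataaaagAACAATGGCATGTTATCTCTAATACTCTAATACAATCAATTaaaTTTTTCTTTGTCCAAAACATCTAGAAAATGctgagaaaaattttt

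Within these places the members moved by small amounts. AT2TE45640 (ATREP10D), the insertion with most reads in nrpd1-/-, had 968, 988 and 1076 scaled reads in mat nrpd1+/- and 1682, 1828 and 2006 in nrpd1-/-. Its groups did not overlap, but its log2 fold change of 0.86 ± 0.23 (adjusted p = 0.000131, edgeR) lay under the 2-fold limit. AT2TE45635 (ATREP11), its neighbour, had 258, 288 and 352 against 738, 915 and 756, and was called higher at 1.42 ± 0.21 (adjusted p = 3.19e-11). AT2TE45630 (ATREP4, 89 bp) had 793, 766 and 965 against 990.1, 1189 and 1441 and was not called, at 0.52 ± 0.22. On chromosome 3, AT3TE54270 (ATREP10D) was at 0.71 and AT3TE52900 at 0.34, neither of them called. Over AT2TE45630 to AT2TE45640, 24-nt reads were 90.3% ± 0.922 (SD, n = 3) of the 22- to 24-nt reads in mat nrpd1+/- and 91.3% ± 1.24 in nrpd1-/- (exact permutation p = 0.3).

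The gene table shows the same places through the pseudogenes. AT2G25025 had 956, 976 and 1066 scaled reads in mat nrpd1+/- and 1682, 1829 and 2007 in nrpd1-/-, at a log2 fold change of 0.88 ± 0.20 that was not called. AT3G32371 had 493, 458 and 526 against 580.5, 693 and 899.6, at 0.56 ± 0.21. Neither AT2G25025 nor AT3G32371 was called under the 2-fold limit. AT2G25025 passed it only without nrpd1-/- replicates 1 and 2 among the settings that leave out libraries, at 1.01. AT3G32313, which overlaps AT3TE54270 and was named after its values were seen, was called higher. It had 60.4, 73.0 and 62.8 scaled reads in mat nrpd1+/- and 176, 232 and 183 in nrpd1-/- (1.59 ± 0.22, adjusted p = 3.5e-12, edgeR).

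Of the 8 TE insertions called higher, 1 rose strongly in every nrpd1-/- library. Without mat nrpd1+/- replicate 1 or without nrpd1-/- replicate 3 the count was 14. AT3TE41045, a 2065 bp ATREP3 Helitron outside genes (chr3:9857882-9859946), had 6.49, 5.06 and 8.96 scaled reads in mat nrpd1+/-, 50.3, 63.5 and 40.0 in nrpd1-/- and 7.36 and 4.57 in pat nrpd1+/-. Its lowest nrpd1-/- library thus lay above all 5 heterozygous libraries, and its log2 fold change was 2.91 ± 0.21 (adjusted p = 4.39e-44, edgeR). AT3TE63870, an ATGP6 Gypsy element, had 93.5, 111 and 92.4 against 190.4, 275 and 177, at 1.12 ± 0.20. Its call was lost without nrpd1-/- replicate 2, where it was at 0.90, and without replicates 1 and 2, where it was at 0.84. AT2TE45665, a META1 Copia element, had 2.56, 3.82 and 2.14 against 7.78, 6.23 and 6.77, at 1.28 ± 0.24. Under library sizes from conserved miRNA families the last pair was no longer called, at 0.72 and 0.88.

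The other 4 insertions called higher had far more reads in pat nrpd1+/-. AT2TE52215 (ATREP10D) had 0.455, 0.112 and 0.178 scaled reads in mat nrpd1+/-, 9.76, 4.95 and 0.662 in nrpd1-/- and 589.7 and 655 in pat nrpd1+/-. Its log2 fold change of 4.38 ± 0.38 rested on nrpd1-/- replicates 1 and 2, and without both it was 1.39 and not called (adjusted p = 0.0801, edgeR). Of all 51 insertions not called lower, 15 had at least 10-fold more reads in pat than in mat nrpd1+/-. Over all 15123 insertions tested 59 did (0.390%). In each of the 15 replicate 1 was the highest and replicate 3 the lowest of the nrpd1-/- libraries. Insertions low in mat nrpd1+/- enter such a selection more readily, so the share and the order are given as a description.

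Of the 5 genes with most reads in mat nrpd1+/-, 2 fell and 3 did not. The latter were the pseudogene AT2G25025 and the 18S rRNA genes AT3G41768 (0.51 ± 0.20) and AT2G01010 (0.48 ± 0.21), none of which was called. AT2G16030, annotated as a methyltransferase of the S-adenosyl-L-methionine-dependent superfamily (chr2:6973673-6975007, overlapping an exon of AT2G16018), had 1245, 1123 and 986 scaled reads in mat nrpd1+/- and 2.58, 3.85 and 2.90 in nrpd1-/-. AT2G06555, an uncharacterized protein gene, had 1164, 1012 and 869 against 2.46, 3.28 and 3.31. Their log2 fold changes were -8.49 ± 0.29 and -8.40 ± 0.29. Among the 5 largest fitted falls all had 0 reads in nrpd1-/-. The transcribed pseudogene AT3G30384 was at least 367-fold lower, AT5G38190 (myosin heavy chain-like) at least 265-fold, AT2G37125 (a GRF zinc finger gene) at least 241-fold, the transcribed pseudogene AT1G40079 at least 223-fold and AT2G21100 (a dirigent-like gene) at least 220-fold.

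Genes of RNA-directed DNA methylation themselves carry 24-nt sRNAs. Of 24 genes of this machinery 8 passed the filter on low counts, and all 8 were lower, beside 89.4% of all genes tested. Their median log2 fold change was -3.29, against -5.17 over all genes. NRPD1, the mutated gene, had 16.4, 14.5 and 14.4 scaled reads in mat nrpd1+/-, 0.315, 0.463 and 0.509 in nrpd1-/- and 4.40 and 5.56 in pat nrpd1+/-, a log2 fold change of -5.14 ± 0.38. These are sRNAs from the locus and not its mRNA, so they check the genotype only indirectly. SUVH9, whose protein recruits Pol V, had 7.79, 8.32 and 7.00 against 0.252, 0.356 and 0.255 (log2 fold change -4.71). Smaller numbers of reads were lost at CLSY2 (AT5G20420, -5.75), a partner of Pol IV, and at RDR2 (-3.25) and DCL3 (-3.18). NRPE1, the largest subunit of Pol V, had 0.626, 0.562 and 0.771 against 0.0630, 0.214 and 0.458 (-1.58), and was not called without nrpd1-/- replicate 1, where it was at -1.02 (adjusted p = 0.0528, edgeR), nor without replicates 1 and 2, where it was at -0.50 (adjusted p = 0.403). On the TMM scale from genes NRPE1 was called higher at 2.79, while RDR2 (1.11, adjusted p = 0.0759, edgeR) and DCL3 (1.16, adjusted p = 0.0661) changed sign and were not called.

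Of 22 genes known for imprinted expression in endosperm, 13 were tested, 12 were lower and none was higher, with a median of -4.92. This is near the share and the median over all tested genes, of which 89.4% were lower with a median of -5.17. AGL36, a MADS-box gene expressed from the maternal allele, had 132, 96.5 and 101 scaled reads in mat nrpd1+/- and 0.220, 0.249 and 0.153 in nrpd1-/- (-8.97 ± 0.36). MYB3R2, a Myb transcription factor gene, had 59.3, 47.5 and 42.2 against 0.220, 0.178 and 0.305 (-7.73 ± 0.37). AGL92 (-6.60), SDC (-6.20), which encodes an F-box protein silenced by DNA methylation in leaves, and FWA (-4.92), a homeodomain gene silenced in the same manner, were lower too. The histone methyltransferase gene SUVH7 had 1.19, 1.12 and 0.534 scaled reads against 0.598, 0.285 and 0.255 (-1.26 ± 0.41, adjusted p = 0.00284, edgeR), and with DESeq2 at the same library sizes it was at -1.30 and not called (adjusted p = 0.0659).

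YUC10, a flavin monooxygenase gene of auxin synthesis, was the one imprinted gene that was not called. It had 4.44, 4.22 and 3.44 scaled reads in mat nrpd1+/-, 5.01, 3.35 and 0.509 in nrpd1-/- and 320.4 and 193 in pat nrpd1+/-. The nrpd1-/- libraries thus straddled the others, and the log2 fold change was -0.42 ± 0.32 (adjusted p = 0.21, edgeR). Without nrpd1-/- replicate 1 it was -1.01 and called lower (adjusted p = 0.00422), and without replicates 1 and 2 together it was -2.97.

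TAS genes, whose transcripts are cut under the guidance of miRNAs and then processed into trans-acting siRNAs, mostly kept their 24-nt reads. Of 8 TAS genes 5 were tested and 2 were lower, beside 89.4% of all genes tested. TAS1C had 186, 194 and 149 scaled reads in mat nrpd1+/- and 137, 176 and 177 in nrpd1-/- (-0.11 ± 0.21, adjusted p = 0.625, edgeR). TAS2 had 149, 150 and 153 against 157, 188 and 221 (0.32 ± 0.21), and TAS1A 108, 111 and 86.9 against 70.7, 87.4 and 72.3 (-0.41 ± 0.22). TAS1B differed from its relatives, with 32.9, 31.9 and 24.1 against 1.45, 3.24 and 2.04 (-3.72 ± 0.30). TAS3 had few reads, 1.71, 1.52 and 1.66 against 0.661, 0.605 and 0.916 (-1.18 ± 0.38), and without nrpd1-/- replicates 1 and 2 it was at -0.82 and not called. On the TMM scale from genes TAS1A, TAS1C, TAS2 and TAS3 were called higher, at 4.0, 4.28, 4.69 and 3.20, and TAS1B was at 0.67 and not called (adjusted p = 0.0681, edgeR).

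The 56 genes called higher fall into unlike kinds. Their biotypes were 22 protein-coding genes, 13 tRNA genes, 8 snoRNA genes, 5 transcribed pseudogenes, 4 lncRNAs, and 4 others. In 34 of the 56 the groups did not overlap. That count was taken among genes already called higher, with none over all genes tested beside it, and is only a description. The count moved with single libraries, to 89 without mat nrpd1+/- replicate 2, 130 without mat nrpd1+/- replicate 3 and 113 without nrpd1-/- replicate 3, and it was 45 without nrpd1-/- replicates 1 and 2. Among the 56, 15 had at least 10-fold more reads in pat than in mat nrpd1+/-, against 66 of all 5418 genes tested (1.22%). Genes low in mat nrpd1+/- meet both criteria more readily and can pass the filter on low counts through nrpd1-/- alone. These shares, and the replicate order at the 15 genes, are therefore given as a description. In all 15 replicate 1 was the highest and replicate 3 the lowest of the nrpd1-/- libraries. The 3 largest rises were of that kind. AT3G05025, a lncRNA, had 0.455, 0.112 and 0.178 scaled reads in mat nrpd1+/-, 18.8, 7.69 and 0.662 in nrpd1-/- and 1015 and 775 in pat nrpd1+/-.

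AT3G05025 and AT1G13760 were listed as siren-like loci, a class described in ovules and seeds of Brassica rapa and Arabidopsis that makes very many 24-nt siRNAs. The list was drawn up with these data known, so its direction is no independent evidence. AT1G13760 had 0.569, 0.450 and 0.297 scaled reads in mat nrpd1+/-, 19.3, 9.36 and 0.814 in nrpd1-/- and 1119 and 936 in pat nrpd1+/-. AT3G15960, annotated for mismatched DNA binding, had 0.796, 0.618 and 0.771, then 28.0, 11.3 and 0.916, then 1569 and 1152. In replicate 3 of nrpd1-/- all of them lay close to mat nrpd1+/-. The log2 fold changes were 5.17 ± 0.46, 4.48 ± 0.42 and 4.20 ± 0.39. Without nrpd1-/- replicates 1 and 2 they were 1.39, 0.88 and 0.33, and none was called (adjusted p = 0.115, 0.124 and 0.501, edgeR).

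Other genes rose evenly in all nrpd1-/- libraries. AT5G49410, annotated as thiamine-phosphate synthase, had 0.171, 0.169 and 0.119 scaled reads in mat nrpd1+/-, 2.14, 2.28 and 1.83 in nrpd1-/- and 0.311 and 0.305 in pat nrpd1+/- (log2 fold change 3.72 ± 0.50, adjusted p = 5.9e-13, edgeR). AT1G71840, a WD-40 repeat gene, had 0.455, 0.281 and 0.653 against 2.05, 2.67 and 3.16 (2.48 ± 0.40). AT3G44570, annotated as a retrotransposon ORF-1 protein and named after its values were seen, had 10.01, 10.7 and 8.66 against 38.7, 48.9 and 47.5 (2.20). In these 3 genes every nrpd1-/- library lay above every mat nrpd1+/- library. The rule that named AT5G49410 and AT1G71840 requires this, so it adds no evidence. AT5G49410 had only 3, 3 and 2 reads in mat nrpd1+/- against 68, 64 and 36 in nrpd1-/-. It can thus have passed the filter on low counts through nrpd1-/- alone.

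**Figure D4:**
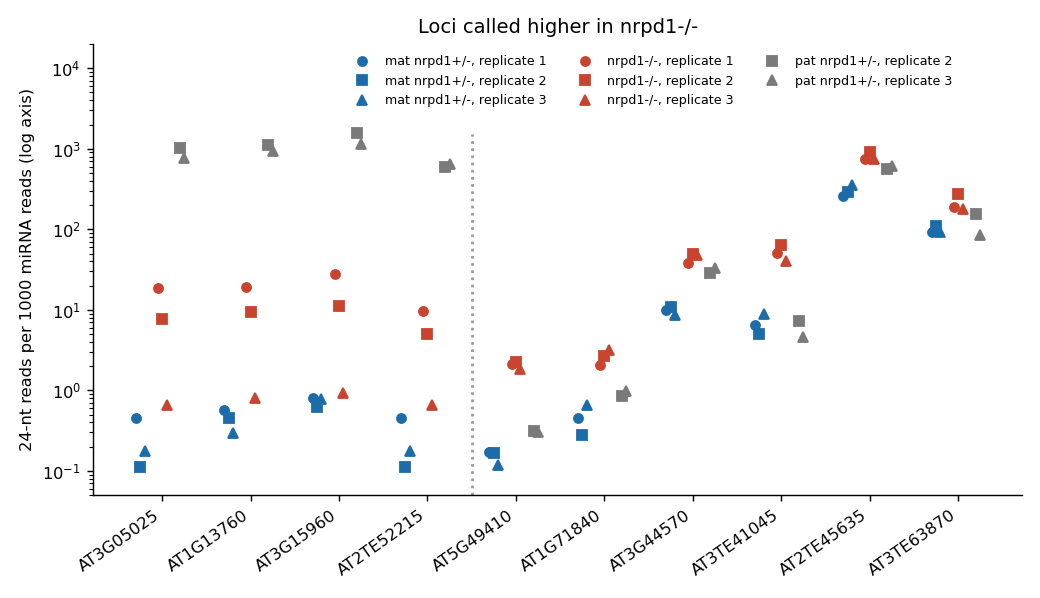
Scaled 24-nt reads (log axis) in each library for 10 loci called higher in nrpd1-/-, with the pat nrpd1+/- libraries in grey. Left of the dotted line are loci with at least 10-fold more reads in pat than in mat nrpd1+/-, where nrpd1-/- replicates 1 and 2 lie above replicate 3. Right of it the 3 nrpd1-/- libraries lie together, from 1.83 to 2.28 at AT5G49410.

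Genes that overlap a miRNA gene made up a larger share of those called higher than of those called lower. Of the 32 higher genes that are protein-coding, lncRNA, pseudogene or other non-coding, 7 overlap an annotated miRNA gene (21.9%), against 26 of 4751 lower genes (0.547%) and 13 of 228 called neither (5.70%). These shares are given as a description. AT2G25015, a transcribed pseudogene that overlaps the miR836 gene AT2G25011 (chr2:10634415-10636130), had 404, 413 and 463 scaled reads in mat nrpd1+/- and 894, 980.1 and 944 in nrpd1-/-. It was called higher at 1.14 ± 0.21 (adjusted p = 7.25e-08, edgeR), and under library sizes from conserved miRNA families it was at 0.73 and not called.

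The mature miRNA entries divided into those that lost their 24-nt reads in nrpd1-/- and those that kept them. Of 160 tested entries 68 were lower (42.5%), 17 were higher (10.6%) and 75 were neither, with a median log2 fold change of -0.31. Since these entries also set the scale, a call says how an entry changed against the sum of all. The lower entries held 38.6%, 33.7% and 27.6% of the miRNA reads in mat nrpd1+/- and 1.94%, 2.16% and 1.48% in nrpd1-/-. With library sizes from the conserved or long-known families alone, chosen after the data were seen, the log2 ratio of the totals was -2.47 at genes and -5.32 at TEs. Of 35 tested entries of those families 4 were lower, against 64 of the other 125.

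Among the entries that are themselves 24 nt long, miR163, which targets methyltransferase genes, kept its reads. It had 49.6, 64.3 and 62.8 scaled reads in mat nrpd1+/- and 49.9, 45.4 and 57.0 in nrpd1-/- (-0.21 ± 0.23, adjusted p = 0.367, edgeR). miR836 rose from 55.5, 46.9 and 46.7 to 111, 127 and 158 (1.41 ± 0.23, adjusted p = 1.05e-09), and under library sizes from conserved miRNA families it was at 0.97 and not called. miR5653, named after its values were seen, fell from 36.4, 32.4 and 30.02 to 0.0630, 0.107 and 0.102 (-8.45 ± 0.42). miR5653 lies within the HELITRONY3 insertion AT1TE63030, while miR163 and miR836 lie in no TE. Of the 9 tested entries of 24 nt, 4 were lower, 1 was higher and 4 were neither. The other lower ones, miR405a, miR405b and miR5018, also lie in no TE. miR5639-3p had 67.4, 68.4 and 92.7 against 122, 127 and 114 (0.67 ± 0.22) and miR8121 42.3, 48.4 and 57.7 against 68.6, 60.1 and 43.7 (0.22 ± 0.23), and neither was called.

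**Figure D5:**
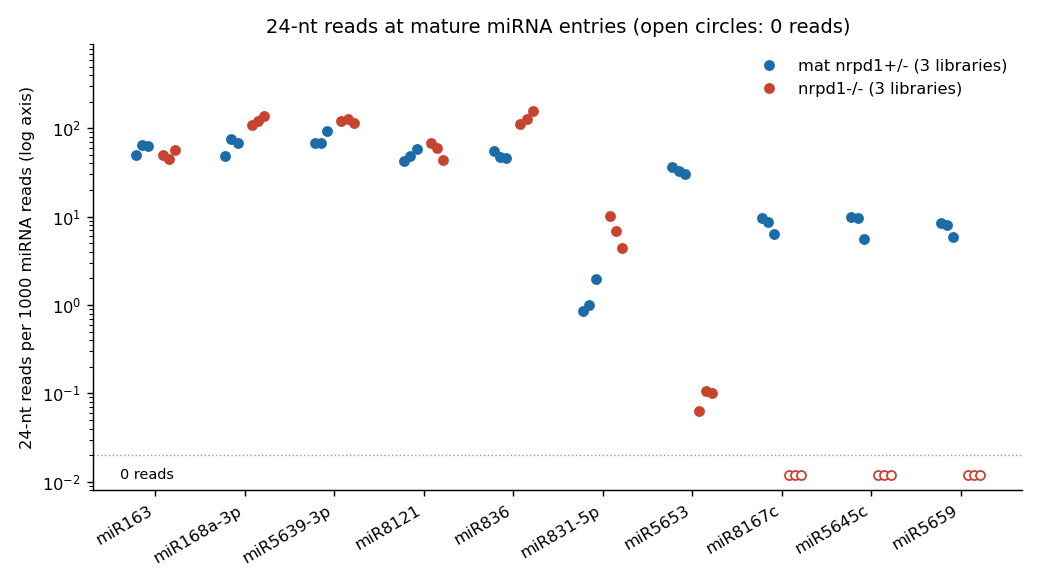
Scaled 24-nt reads (log axis) at mature miRNA entries in each of the 3 libraries of mat nrpd1+/- and of nrpd1-/-, with open circles below the dotted line for 0 reads. miR163 and miR8121 overlap between the genotypes, miR836 and miR831-5p lie higher in nrpd1-/-, and miR5653, miR8167c, miR5645c and miR5659 lie at or near 0 there.

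The entries that fell furthest had no read in nrpd1-/-. miR5645c had 10.01, 9.73 and 5.64 scaled reads in mat nrpd1+/- and was at least 224-fold lower. miR8167c had 9.73, 8.60 and 6.41 and was at least 218-fold lower, and miR5659 had 8.42, 8.04 and 5.93 and was at least 198-fold lower. miR8177 and miR8167b were at least 133-fold and at least 120-fold lower. Of the 68 lower entries 24 lie in a TE insertion (35.3%), against 1 of 75 that were neither and 0 of 17 that were higher.

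The 68 lower entries have 52 different seeds. The most shared was GAUGUGG, in miR8167a to miR8167f, of which 5 of the 6 lie in ATREP12 Helitrons. UUUGAGU was shared by miR5645a, b, d, e and f, of which 4 lie in ATMU10 elements, and GUUAAGG by miR5635a to miR5635d, of which 3 lie in ATMU3N1 elements. Members of one seed group can share reads, since their sequences are alike. The annotated first base was A in 34 of 68 lower entries, in 15 of 75 that were neither and in 6 of 17 that were higher. All entries of the GAUGUGG and UUUGAGU groups begin with A and those of the GUUAAGG group with U. Copies of the same sequence are thus counted separately, and the counts are given as a description. The first base of the counted reads themselves was not tested.

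Among entries called higher, miR831-5p had 0.853, 1.01 and 1.96 scaled reads in mat nrpd1+/- and 10.2, 6.84 and 4.38 in nrpd1-/- (2.49 ± 0.36). miR835-3p had 6.49, 8.27 and 11.0 against 40.6, 29.6 and 15.2 (1.73 ± 0.27), and without nrpd1-/- replicates 1 and 2 it was at 0.82 and not called. miR472-5p, whose partner strand targets disease resistance genes, was at 1.53, miR781a at 1.51 and miR865-5p at 1.49. Of the conserved miR168a, the 3p strand had 48.1, 74.8 and 68.8 against 109, 119 and 136 (0.93 ± 0.22) and the 5p strand 35.5, 37.2 and 60.7 against 66.3, 58.6 and 70.7 (0.55 ± 0.23). Neither strand passed the 2-fold limit, but the 3p strand was called without mat nrpd1+/- replicate 2, at 1.06, without nrpd1-/- replicate 1, at 1.0, and without nrpd1-/- replicates 1 and 2, at 1.09.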

How the data were processed

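The members of the comparison and all lists were chosen with earlier results of these data known. Small RNA libraries were made with the NEXTflex kit, and the submitters' processing notes name cutadapt, Bowtie 1.2.2, bedtools, DESeq2 and the TAIR10 genome. The authors deposited raw counts of 24-nt (and 22- and 23-nt) reads per gene, mature miRNA and TE insertion, with each read kept at 1 alignment. Of the deposited 24-nt counts of the gene tables, 87.8% to 88.5% in mat nrpd1+/- and 56.2% to 57.6% in nrpd1-/- fell in no gene or were ambiguous and were left out. A read in a TE inside a gene counts in both tables. The authors' own fold changes and p-values against wild type, their window lists and 368 columns of per-sample values were not used.

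Library sizes were the reads in 427 mature miRNA entries, since a scale from all genes moves with a loss of reads at most of them. Loci kept by edgeR's filterByExpr were tested with its quasi-likelihood test (edgeR 4.0.16, R 4.3.3), genes and miRNA entries in one fit and TE insertions in another, with Benjamini-Hochberg adjustment over each table. Totals per library were compared with exact permutation tests in Python 3.11.15 (pandas 2.3.3, matplotlib 3.10.9). The test was tried on simulated counts in which 200 loci of each table changed 4-fold, up or down. It recovered 78% of these for genes and 92% for TEs, and 2.5% and 6.12% of its calls were false. Most loci stayed unchanged in the simulation, so it does not cover a loss at most loci as seen here. Counting error of PCR reads is a lower limit to the true error. Replicates of each group differed by more than sampling noise, so each was counted as 1 library.

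Loci were named by rule: for genes and TEs the 5 largest falls and rises among called loci with a mean of at least 20 reads and no overlap between groups, the 5 with most reads in each group, the leading insertion of each superfamily, list members, and the miRNA entries with most reads or largest changes. Others are marked as chosen after their values were seen. Alternatives were other library sizes, DESeq2 1.42.0, other filters and thresholds, a replicate block, and leaving out each library. Library sizes from conserved miRNA families or from tRNA, snoRNA and small nuclear RNA genes, and leaving out nrpd1-/- replicates 1 and 2 together, were chosen after seeing the data.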

Additional observations from a re-analysis of the deposited data

How the results depend on the processing

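With TMM sizes from genes, 1873 genes were lower and 2463 higher, 335 TE insertions were higher, 30 miRNA entries were lower and 168 higher, and the log2 ratios of the totals were 2.37 (genes) and -0.49 (TEs). With DESeq2's size factors 1458 genes, 129 TE insertions and 156 miRNA entries were higher, and with DESeq2 at miRNA sizes 13872 genes were lower. Sizes from conserved miRNA families gave 25 genes, 4 TE insertions and 9 miRNA entries higher and log2 ratios of -2.47 and -5.32. Sizes from tRNA, snoRNA and small nuclear RNA genes gave 5 TE insertions higher and ratios of -2.26 and -5.09, and TMM over miRNA entries gave -1.94 for genes. Without the filter on low counts 20099 genes were lower and 123 higher, 24 TE insertions were higher, and 121 miRNA entries were lower and 27 higher. With a mean of at least 20 reads 2353 genes and 44 miRNA entries were lower, and with no minimum fold change 123 genes, 19 TE insertions and 31 miRNA entries were higher. Signs turned under TMM sizes from genes and under DESeq2's size factors for YUC10 (4.08 and 1.90), SUVH7 (3.16 and 1.04), NRPE1 (2.79 and 0.77), TAS1A (4.0 and 1.89), TAS1C (4.28 and 2.18), TAS3 (3.20 and 1.12) and miR163 (4.16 and 2.08), and under the former alone for RDR2 (1.11), DCL3 (1.16) and TAS1B (0.67). Both of these sizes are taken from the gene counts and so move with a loss shared by most genes. Any further cause was not tested. Leaving out 1 library gave 5391 to 6351 genes lower and 42 to 130 higher, 15448 to 16097 TE insertions lower and 6 to 14 higher, 70 to 79 miRNA entries lower and 16 to 24 higher, and gene total ratios of -2.11 to -1.97. Without nrpd1-/- replicates 1 and 2 together 7714 genes were lower, with the lone library assumed to vary like the others. Of 1533 values over 81 named loci, 1450 kept direction and call, 43 gained a call, 23 lost one and 17 turned sign. Replicate numbers did not pair the libraries (same-number correlations of deviations across loci of -0.0666 to 0.0478), and a replicate block gave 4849 genes lower and 53 higher, 15074 TE insertions lower and 6 higher, and 68 miRNA entries lower and 16 higher. Loci with under about 3 reads per group limit any fold to a bound.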
